A study of Mus musculus with 2 samples.

Results

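The melanocyte pigment genes are 10 of the 23233 gene symbols in the deposited table, taken by name: Dct, Tyrp1, Tyr, Pmel, Mlana, Slc45a2, Oca2, Mitf, Sox10 and Kit. All 10 were found, and all 10 passed the filter of at least 1 RPKM in a library. The genes' levels were compared between ZIP10-positive and ZIP10-negative cells, sorted from dissociated ventral skin of wild-type C57BL/6 mice aged 7 days. The sort used a polyclonal antibody to ZIP10, a zinc importer. Both groups share strain, age, tissue and digestion, and differ in antibody staining. The labels name no sort on a melanocyte marker and no number of animals, and their titles speak of hair follicles while the protocol describes whole ventral skin. Each group is 1 library of polyadenylated RNA, so there is no replicate, no test and no p-value. The error given throughout is a 95% counting interval. Values are in RPKM, reads per kilobase of transcript scaled to the reads of the library, which allows levels of different genes to be set side by side. As a check of the labels, the ZIP10 gene Slc39a10 had 49.4 RPKM in ZIP10-positive cells and 11.1 RPKM in ZIP10-negative cells. This is a ratio of 4.43 as deposited, and of 2.25 relative to the ratio of the median gene, a scale described below.

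Melanocytes make melanin in melanosomes, organelles related to lysosomes, and pass them to keratinocytes of the growing hair. Tyrosinase, encoded by Tyr, carries out the first steps of melanin synthesis, and its relatives Tyrp1 and Dct (dopachrome tautomerase) act later on the path to eumelanin. Pmel forms the fibrils on which melanin is laid down, Mlana is a small membrane protein that interacts with Pmel, and Slc45a2 and Oca2 are membrane transporters that set melanosomal pH. Mitf is the transcription factor that drives these genes through the M-box, an E-box motif with flanking letters. Sox10 lies upstream of Mitf, and Kit is the receptor for the growth factor encoded by Kitl, on which melanocytes depend. Kit and Mitf are also used by mast cells, and Sox10 by Schwann cells.

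Start-site windows of the 3 enzyme genes are shown because these paralogs share the Mitf-type motif and yet had different ratios between the libraries. Sequences are from RefSeq on build GRCm38.p6, each from 250 bases before to 50 after an annotated start, 5′ to 3′ on the gene's strand, with the motif CATGTG or its reverse complement in capitals. The Tyr window is chr7:87493463-87493762 on the minus strand, the Tyrp1 window chr4:80833963-80834262 on the plus strand, and the Dct window chr14:118052197-118052496 on the minus strand.
Tyr: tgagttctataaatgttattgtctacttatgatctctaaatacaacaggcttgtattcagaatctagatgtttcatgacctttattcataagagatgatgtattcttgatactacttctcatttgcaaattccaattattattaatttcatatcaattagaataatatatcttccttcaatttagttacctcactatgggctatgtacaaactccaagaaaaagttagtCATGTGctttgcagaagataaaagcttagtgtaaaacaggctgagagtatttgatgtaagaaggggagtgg
Tyrp1: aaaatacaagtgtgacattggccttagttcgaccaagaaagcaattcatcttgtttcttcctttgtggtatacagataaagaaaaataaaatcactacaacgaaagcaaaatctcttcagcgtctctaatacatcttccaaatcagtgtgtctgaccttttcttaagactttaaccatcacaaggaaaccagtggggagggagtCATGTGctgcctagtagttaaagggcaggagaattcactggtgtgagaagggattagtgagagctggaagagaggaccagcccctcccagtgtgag
Dct: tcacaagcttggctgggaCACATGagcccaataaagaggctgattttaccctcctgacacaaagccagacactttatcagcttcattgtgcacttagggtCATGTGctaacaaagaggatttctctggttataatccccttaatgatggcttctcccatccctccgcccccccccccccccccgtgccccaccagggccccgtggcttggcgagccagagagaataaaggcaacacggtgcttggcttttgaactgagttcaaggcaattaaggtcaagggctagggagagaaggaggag

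Counted from the annotated start, the motif began at position -21 in Tyr, at -46 in Tyrp1, and at -232 and -150 in Dct, where the more distant copy lies on the opposite strand. In all 3 genes it was part of the longer TCATGTG. Both strands were searched, and the shorter motif is contained in the longer one. CATGTG was found in 14.2% of all 32851 start-site windows and TCATGTG in 3.77%. Tyr and Tyrp1 shared the 11 letters agtCATGTGct, which 7 of the 32851 windows hold. Dct shared the 10 letters gtCATGTGct with both, and 61 windows hold these. Of the other members, windows were at hand for Oca2 (1), Mitf (3) and Kit (2), and among these only the Oca2 window held CATGTG, on the opposite strand and outside TCATGTG. None of the 9 windows of members held CACGTG, the E-box found in 7.15% of all windows. No window was at hand for Mlana, Pmel, Slc45a2 and Sox10. A match is a description of letters, not a site of binding.

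Among the enzymes, Dct was the most abundant of all 10 members, at 118 RPKM in ZIP10-positive cells, against 73.3 RPKM in ZIP10-negative cells. Its ratio of positive to negative was 1.61 (counting interval 1.42 to 1.83). Tyrp1 stood at 20.8 RPKM in ZIP10-positive cells, against 24.0 RPKM in ZIP10-negative cells, a ratio of 0.868 (0.690 to 1.09). Tyr stood at 8.76 RPKM in ZIP10-positive cells, against 16.3 RPKM in ZIP10-negative cells, a ratio of 0.537 (0.434 to 0.661, or 0.377 to 0.765 if reads are estimated from its median annotated transcript of 2333 bases). Dct was thus higher in ZIP10-positive cells and Tyr lower beyond counting error, while the interval of Tyrp1 holds equal levels. Per Dct, the level of Tyr was 0.0743 in ZIP10-positive and 0.223 in ZIP10-negative cells, or 0.334 of the ZIP10-negative value. This comparison within each library does not depend on how the libraries are scaled. Its counting interval, as positive over negative, was 0.260 to 0.427, or 0.228 to 0.488 with median annotated transcripts. Scaling does not remove effects of transcript length, in which Tyr (6042 bases) and Dct (2202 bases) differ, and their part was not tested. Tyrp1 per Dct was 0.177 in ZIP10-positive and 0.327 in ZIP10-negative cells, or 0.540 of the ZIP10-negative value (0.414 to 0.703).

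Of the structural genes, Pmel stood at 79.4 RPKM in ZIP10-positive cells, against 53.5 RPKM in ZIP10-negative cells, a ratio of 1.48 (1.27 to 1.73). Mlana stood at 53.1 RPKM in ZIP10-positive cells, against 32.96 RPKM in ZIP10-negative cells, a ratio of 1.61 (1.17 to 2.24). Both were higher in ZIP10-positive cells beyond counting error. Per Dct, Pmel was at 0.674 in ZIP10-positive and 0.730 in ZIP10-negative cells, and Mlana at 0.451 and 0.450. The intervals of these ratios, 0.755 to 1.13 for Pmel and 0.706 to 1.43 for Mlana, hold equal proportions.

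The transporter genes were expressed at a few RPKM. Slc45a2 stood at 3.49 RPKM in ZIP10-positive cells, against 2.25 RPKM in ZIP10-negative cells, a ratio of 1.55 (0.814 to 3.03). Oca2 stood at 2.71 RPKM in ZIP10-positive cells, against 3.22 RPKM in ZIP10-negative cells, a ratio of 0.842 (0.446 to 1.51). With about 27 and 17 reads for Slc45a2 and 22 and 26 for Oca2, no difference between the deposited values was detectable at this depth in either gene.

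Of the regulators, Sox10 had the highest ratio of the 10 members. It stood at 5.15 RPKM in ZIP10-positive cells, against 2.20 RPKM in ZIP10-negative cells, a ratio of 2.34 (1.29 to 4.72) from about 37 and 15 reads. Mitf was the lowest member in both libraries, at 1.38 RPKM in ZIP10-positive cells, against 1.26 RPKM in ZIP10-negative cells, a ratio of 1.09 (0.528 to 2.30). Its value sums several transcripts that start at different promoters and are used in different cell types, so it is not a level of the melanocyte form alone. The receptor gene Kit stood at 3.04 RPKM in ZIP10-positive cells, against 2.23 RPKM in ZIP10-negative cells, a ratio of 1.37 (0.857 to 2.31). The intervals of Mitf and Kit hold equal levels.

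**Figure D1:**
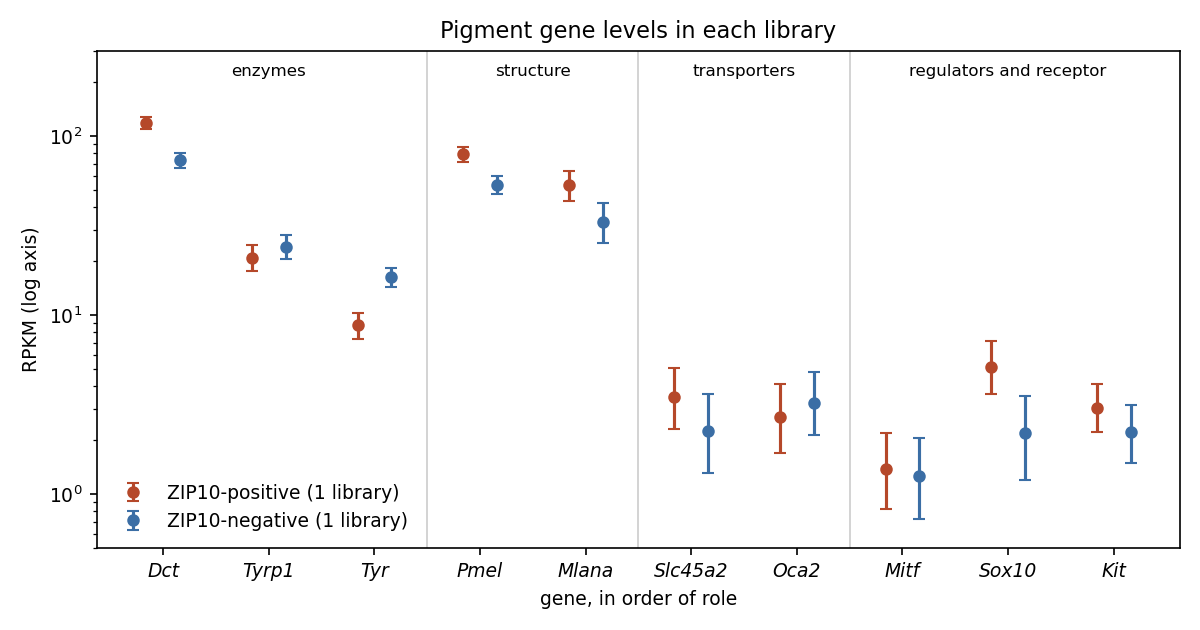
RPKM of each pigment gene on a log axis, with 1 point per library (ZIP10-positive left, ZIP10-negative right) and bars for the exact Poisson 95% interval of estimated reads. Dct, at 118 and 73.3 RPKM, stands highest and Mitf, at 1.38 and 1.26 RPKM, lowest in the ZIP10-positive and ZIP10-negative library, and Tyr is the member whose intervals separate with the ZIP10-negative library on top.

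The order of levels was the same in both libraries for the 5 most abundant members, Dct, Pmel, Mlana, Tyrp1 and Tyr. In ZIP10-positive cells each of these 5 was separated from the next member by its counting interval, with reads estimated from the longest transcript. The gap between Tyr (lower end 7.38 RPKM) and Sox10 (upper end 7.12 RPKM) was narrow. With their median annotated transcripts these 2 genes would rest on about 52 and 24 reads, and the gap was not tested there. In ZIP10-negative cells the intervals of Mlana (25.3 to 42.1 RPKM) and Tyrp1 (20.5 to 28.0 RPKM) overlapped. Below Tyr the order was Sox10, Slc45a2, Kit, Oca2 and Mitf in ZIP10-positive cells and Oca2, Slc45a2, Kit, Sox10 and Mitf in ZIP10-negative cells. All neighbours among these 5 overlapped in their intervals, in both libraries. Dct made up 39.9% of the summed RPKM of the 10 members in ZIP10-positive and 34.7% in ZIP10-negative cells, and Tyr 2.96% and 7.73%.

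Summed over the 10 members, RPKM came to 296 in ZIP10-positive and 211 in ZIP10-negative cells, a ratio of 1.40. As deposited, 7 of the 10 were higher and 3 (Tyrp1, Tyr and Oca2) lower in ZIP10-positive cells. For calls by size, 1 RPKM was added to both values, which understates differences of low genes, and a gene was counted when it was at least 2-fold apart. No member reached 2-fold in the higher or in the lower direction, against 44.1% and 3.55% of all 12249 genes compared. The median log2 ratio of the members was 0.39, beside 0.87 over all genes compared. Over all genes, 17.3% lay below 0.

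Globin transcripts and the ribosomal RNA precursor Rn45s made up 6.34% of the summed RPKM in ZIP10-positive and 63.4% in ZIP10-negative cells. The median gene, taken over 9620 genes that reached 1 RPKM in each of the libraries, had a ratio of 1.97, or 0.98 on the log2 scale. Relative to this median gene, 9 of the 10 members were lower in ZIP10-positive cells and 1, Sox10, was higher. At least 2-fold lower were 2 members, Tyr at a log2 ratio of -1.72 and Tyrp1 at -1.13, and none was 2-fold higher, against 11.4% lower and 14.7% higher of all genes compared. The members' median log2 ratio was -0.39 on this scale, beside 0.09 over all genes compared. Over all genes 45.5% lay below 0 on this scale. Without the added 1 RPKM, the counting intervals of 5 members lay below the median gene (Dct, Tyrp1, Tyr, Pmel and Oca2), and those of the other 5 held it. Of the 11077 genes compared that have an annotated length, 24.9% had an interval below the median gene and 27.1% one above it. In the deposited values the intervals of 4 members lay above equality (Dct, Pmel, Mlana and Sox10), 1 below it (Tyr), and 5 held it, beside 62.7% above and 6.88% below among these 11077 genes. More reads narrow an interval, so these shares also depend on how abundant the genes are.

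The direction of most members differed between these scales. Dct, Pmel, Mlana, Slc45a2, Mitf and Kit were higher in ZIP10-positive cells as deposited, and lower on the scale of the median gene. For example, the log2 ratio of Dct was 0.68 as deposited and -0.29 relative to the median gene, that of Mlana 0.67 and -0.28, and that of Pmel 0.56 and -0.40. Tyr, Tyrp1 and Oca2 were lower on either scale. Tyr was at -0.83 as deposited and at -2.10 with libraries scaled to their sums without globin genes and Rn45s. Sox10 was at 0.94 as deposited, at 0.19 relative to the median gene and at -0.13 with that last scaling. In bulk RNA of this kind, fewer melanocytes and less pigment-gene RNA per melanocyte cannot be told apart.

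**Figure D2:**
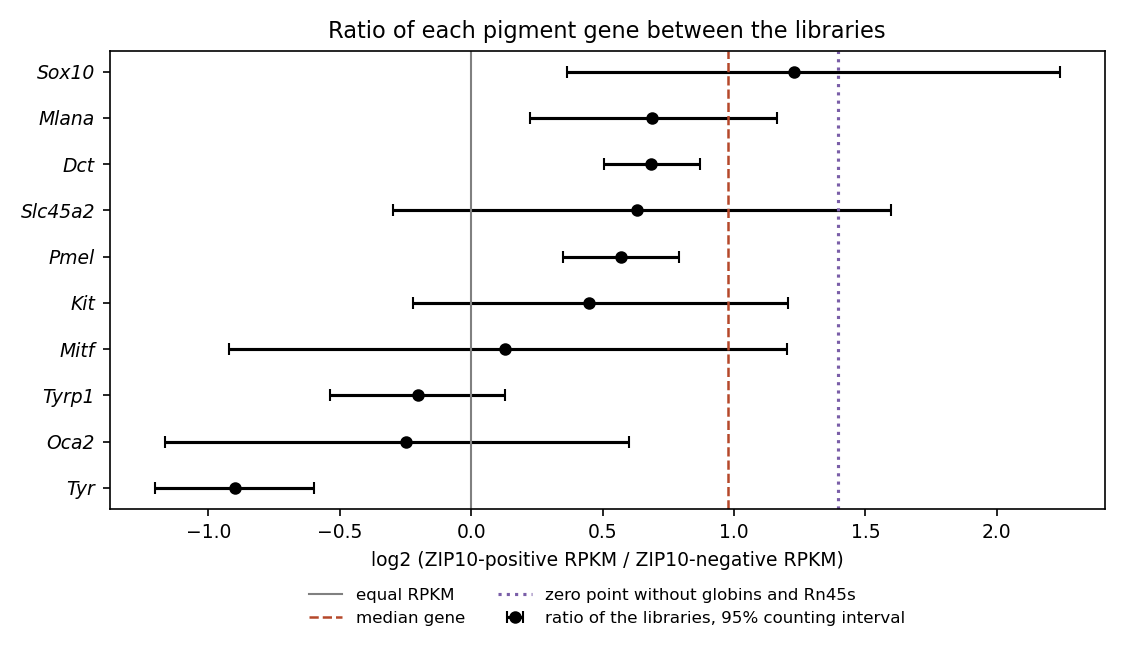
Log2 ratio of ZIP10-positive to ZIP10-negative RPKM for each pigment gene, with no added constant, and bars for the exact binomial 95% interval of estimated reads. The solid line is equal RPKM, the dashed line the median gene at 0.98 and the dotted line the zero point without globin genes and Rn45s at 1.39; Tyr lies left of all 3 lines and Sox10 alone lies right of the dashed one.

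Transcript length moved with the ratio across all genes. Of the 9620 genes behind the median gene, 8780 had a length in the reference annotation. Their median log2 ratio, with nothing added, was 1.77 for the 563 genes whose longest coding transcript is under 1000 bases, 1.37 at 1000 bases or more but under 2000, 1.05 at 2000 or more but under 3000, 0.87 at 3000 or more but under 4500, and 0.48 for the 2064 genes of 4500 bases or more. Set beside genes of their own length class, 9 of the 10 members were lower than the class median and Sox10 was higher. Tyr, with a transcript of 6042 bases, was at -0.90 in a class with a median of 0.48, and Tyrp1, with 2720 bases, at -0.20 against 1.05. Mlana, with 906 bases, was at 0.69 in a class with a median of 1.77, and Oca2, with 3132 bases, at -0.25 against 0.87. These 4 lay below the lower quartile of their class, and the other 6 between its quartiles. Kit (5241 bases) and Mitf (4881 bases) were at 0.45 and 0.13 in the class of Tyr. Dct (2202 bases) and Tyrp1 belong to the same length class and differed from each other in ratio. The part of transcript length in the members' ratios was not tested.

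**Figure D3:**
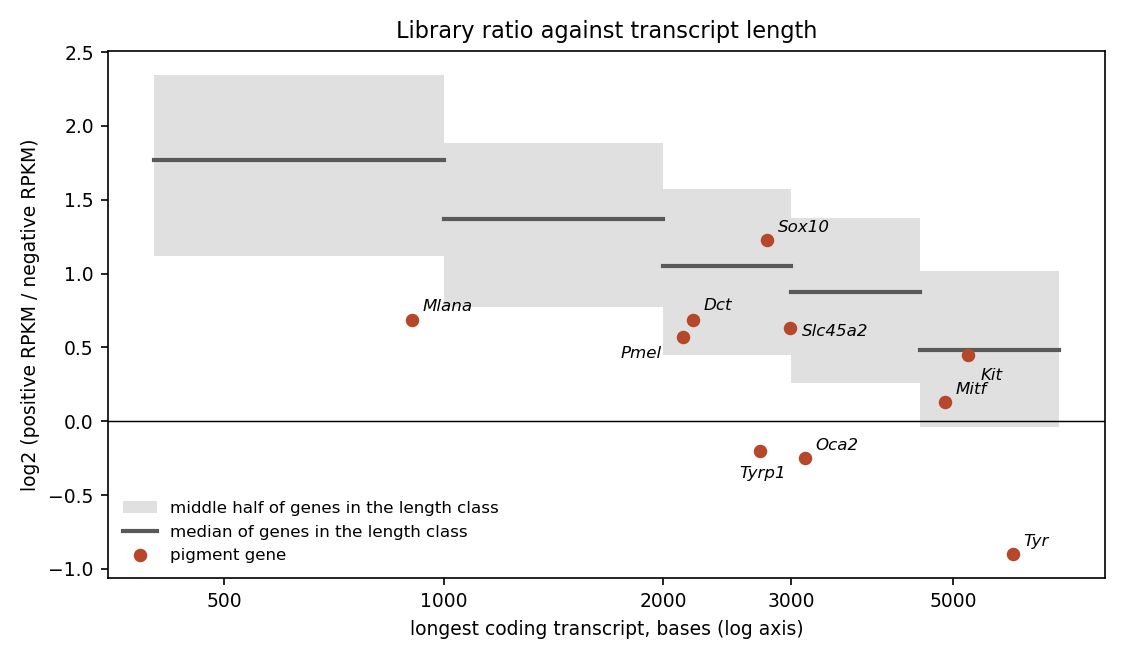
Log2 ratio of ZIP10-positive to ZIP10-negative RPKM against the longest coding transcript on a log axis. Grey bands span the middle 50% of genes in each of 5 length classes, dark bars are their medians and points are the pigment genes; the first and last class are open-ended, and all points except Sox10 lie below their class median.

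Other genes of melanosomes and melanocytes, in a list of 17 that were all measured, ranged from a log2 ratio of -1.04 (Trpm1) to 2.30 (Rab32) as deposited. In the deposited values 3 of them were higher by 2-fold or more in ZIP10-positive cells and 2 lower, beside 44.1% and 3.55% of all genes, with a median log2 ratio of 0.09. On the scale of the median gene 1 (Rab32) was higher and 5 (Trpm1, Rab27a, Ednrb, Gpr143 and Cited1) were lower, beside 14.7% and 11.4% of all genes, with a median of -0.71. Trpm1, a cation channel of melanocytes, stood at 12.0 RPKM in ZIP10-positive cells, against 25.7 RPKM in ZIP10-negative cells, a ratio of 0.467 (0.389 to 0.557). Rab27a, the small GTPase that tethers melanosomes to their myosin motor, stood at 4.74 RPKM in ZIP10-positive cells, against 10.7 RPKM in ZIP10-negative cells, a ratio of 0.444 (0.295 to 0.653). Their counting intervals overlap that of Tyr. Ednrb, the endothelin receptor of melanoblasts, stood at 10.2 RPKM in ZIP10-positive cells, against 11.8 RPKM in ZIP10-negative cells, and Slc24a5, an ion exchanger needed for melanin, at 5.14 and 5.27 RPKM. Rab38, a GTPase that sorts Tyr and Tyrp1 to melanosomes, stood at 10.7 RPKM in ZIP10-positive cells, against 10.5 RPKM in ZIP10-negative cells. Gpr143 rested on about 4 and 7 reads and Cited1 on 1 and 5, and no difference between their deposited values was detectable. Of the remaining genes of the list, Mc1r, the melanocortin receptor, stood at 1.42 RPKM in ZIP10-positive cells, against 0.691 RPKM in ZIP10-negative cells, and Tspan10, a tetraspanin, at 3.28 and 1.98 RPKM. Myo5a and Mlph, the myosin motor of melanosomes and its linker to Rab27a, stood at 1.47 and 0.755 RPKM in ZIP10-positive cells, against 1.31 and 1.08 RPKM in ZIP10-negative cells. Atp7a, a copper pump that supplies tyrosinase, stood at 1.42 RPKM in ZIP10-positive cells, against 0.974 RPKM in ZIP10-negative cells. The intervals of these 5 genes hold equal deposited levels.

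Genes of this list can also be expressed in other cells, whichever way their ratios went. Those higher by 2-fold or more were Rab32, Slc7a11 and Mreg. Rab32, a partner of Rab38 in sorting that is also expressed in macrophages, stood at 25.4 RPKM in ZIP10-positive cells, against 4.38 RPKM in ZIP10-negative cells, a ratio of 5.81 (3.75 to 9.54). Slc7a11, a cystine transporter, stood at 7.48 RPKM in ZIP10-positive cells, against 1.76 RPKM in ZIP10-negative cells, and Mreg, which encodes melanoregulin, at 14.6 and 6.75 RPKM. Gpnmb, a relative of Pmel that macrophages also express, stood at 25.3 RPKM in ZIP10-positive cells, against 22.1 RPKM in ZIP10-negative cells. Macrophage markers were higher by 2-fold or more in ZIP10-positive cells in 8 of 8 genes. In ZIP10-negative cells 3 of them (Lyz2, C1qa and C1qb) stood at 0, which can also be a failed estimate. Csf1r and Adgre1 stood there at 0.301 and 0.363 RPKM. These genes passed the filter only through their ZIP10-positive value, so the count is not read against the 44.1% of all genes. The markers summed to 1136 RPKM in ZIP10-positive cells, of which Lyz2 gave 772 RPKM, against 50.4 RPKM in ZIP10-negative cells. The part of macrophages in the values of Rab32, Slc7a11, Mreg and Gpnmb was not tested. Nor was the part of other cells in the values of the rest of the list, Rab27a and Ednrb included.

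Mast cells use Kit and Mitf, and Schwann cells use Sox10. Of 10 mast cell markers, 7 passed the filter and 6 of these were higher by 2-fold or more in ZIP10-positive cells. Among the 6, Fcer1a at 0 and Hdc at 0.169 RPKM in ZIP10-negative cells passed only through their ZIP10-positive value. The count is therefore not read against the 44.1% of all genes. The sum over the list was 308 RPKM in ZIP10-positive cells and 13.04 RPKM in ZIP10-negative cells. The ZIP10-negative table lists Fcer1a, Ms4a2, Mrgprb2 and Tpsab1 at 0, and Tpsab1 is at 0 also in ZIP10-positive cells. The sum of mast cell markers differed 23.6-fold between the libraries and Kit 1.37-fold. Of 10 Schwann cell markers, 9 passed the filter and 2 of these (S100b and Sox2) were higher by 2-fold or more, a smaller share than the 44.1% of all genes, with a median log2 ratio of 0.20 as deposited and -0.37 relative to the median gene. Their sum was 50.7 RPKM in ZIP10-positive cells, against 35.7 RPKM in ZIP10-negative cells, and Cdh19 was listed at 0 in ZIP10-negative cells. The largest part of either sum came from Egr2, with 13.9 and 12 RPKM. Markers of this list, Egr2, Ngfr and Sox2 included, can also be expressed in other cells. The sum and the count are therefore not a measure of Schwann cells alone. S100b, a calcium-binding protein of glia that melanocytes also make, stood at 10.8 RPKM in ZIP10-positive cells, against 1.52 RPKM in ZIP10-negative cells, and Ngfr, the p75 neurotrophin receptor, at 6.07 and 9.76 RPKM. The share of Sox10, Kit and Mitf reads that came from these cells was not tested.

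Transcription factors of the lineage other than Mitf and Sox10 are in part shared with other skin cells. Of 15, 11 passed the filter, and 3 of these (Usf1, Tfeb and Creb1) were higher by 2-fold or more as deposited, with none lower, a smaller share than the 44.1% of all genes. On the scale of the median gene none was higher and 1 (Zeb2) was lower, beside 14.7% and 11.4% of all genes. Pax3, an activator of Mitf, stood at 1.14 RPKM in ZIP10-positive cells, against 0.544 RPKM in ZIP10-negative cells. Lef1, a mediator of WNT signals that the hair matrix also expresses, stood at 18.8 RPKM in ZIP10-positive cells, against 19.0 RPKM in ZIP10-negative cells. Usf1, a factor that binds the same E-boxes as Mitf, stood at 32.0 RPKM in ZIP10-positive cells, against 10.9 RPKM in ZIP10-negative cells. Tfap2a, an AP-2 factor shared by melanocytes and keratinocytes, stood at 10.2 RPKM in ZIP10-positive cells, against 7.25 RPKM in ZIP10-negative cells, a log2 ratio near the members' median. Among 35 other pigment-related genes that reached 5 RPKM, the log2 ratios nearest to the members' median of 0.39 were those of Tfe3 (0.41), Tfap2a (0.43), Bace2 (0.44), Snai2 (0.35) and Vps33a (0.44). With 2 libraries this likeness rests on a single ratio per gene.

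Complexes that build melanosomes and other lysosome-related organelles are mutated in many mice with diluted coats. Of 18 such genes, 17 passed the filter. In the deposited values 5 were higher by 2-fold or more, a smaller share than the 44.1% of all genes, and none was lower. On the scale of the median gene 2 (Bloc1s2 and Bloc1s4) were higher and 2 (Ap3b1 and Ap3d1) lower, beside 14.7% and 11.4% of all genes. The 5 were Bloc1s1, Bloc1s2, Bloc1s3, Bloc1s4 and Bloc1s6, which encode subunits of BLOC-1. The other subunits, Bloc1s5, Dtnbp1 and Snapin, did not reach 2-fold with 1 RPKM added. Ratios were higher for short transcripts across all genes. Bloc1s1, Bloc1s2 and Bloc1s4 have 613, 885 and 1273 bases, and Bloc1s3 and Bloc1s6 3188 and 3484. The part of length was not tested. Bloc1s1 stood at 115 RPKM in ZIP10-positive cells, against 29.8 RPKM in ZIP10-negative cells, Bloc1s2 at 41.5 and 8.50 RPKM, and Bloc1s3 at 21.7 and 5.65 RPKM. Bloc1s5 stood at 10.6 RPKM in ZIP10-positive cells, against 4.94 RPKM in ZIP10-negative cells. Dtnbp1 and Snapin stood at 24.4 and 17.6 RPKM in ZIP10-positive cells, against 15.6 and 9.68 RPKM in ZIP10-negative cells. Ap3b1 and Ap3d1, subunits of the adaptor AP-3, stood at 3.11 and 1.51 RPKM in ZIP10-positive cells, against 5.60 and 3.99 RPKM in ZIP10-negative cells. These genes are active in nearly all cells, so their values do not describe melanocytes alone.

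Ligands that act on melanocytes come from other skin cells. Of 12 genes of such ligands and of their modifiers, which need not be ligands or come from other cells, 10 passed the filter. In the deposited values 5 were higher by 2-fold or more and none lower, but 3 of the 5 (Edn1, Pomc and Fgf2) are at 0 in ZIP10-negative cells and passed the filter only through their ZIP10-positive value, so the count is not read against the 44.1% of all genes. On the scale of the median gene 3 (Edn1, Edn2 and Fgf2) were higher and 1 (Corin) was lower, beside 14.7% and 11.4% of all genes. These 3 passed the filter only through their ZIP10-positive value, so their count is not read against the 14.7%. Kitl, the ligand of Kit, stood at 2.19 RPKM in ZIP10-positive cells, against 2.46 RPKM in ZIP10-negative cells. Asip, the gene of the agouti signal that can switch melanocytes towards pheomelanin, is listed under its symbol a. Its RNA stood at 27.97 RPKM in ZIP10-positive cells, against 7.55 RPKM in ZIP10-negative cells. Whether this RNA gives a working agouti signal in the strain of mice used was not tested. Corin, a dermal papilla protease that limits agouti activity, stood at 69.7 RPKM in ZIP10-positive cells, against 73.9 RPKM in ZIP10-negative cells. Edn3, the ligand of Ednrb, stood at 29.9 RPKM in ZIP10-positive cells, against 14.9 RPKM in ZIP10-negative cells, which is close to the median gene. Edn2 stood at 9.32 RPKM in ZIP10-positive cells, against 0.708 RPKM in ZIP10-negative cells, from about 33 and 2 reads, a ratio of 13.2 with a counting interval of 4.12 to 138. Edn1, Pomc, Hgf, Fgf2 and Nrg1 were listed at 0 in ZIP10-negative cells, where a 0 can also be a failed estimate.

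Markers of the cells that surround melanocytes in skin gave values on either side of the pigment genes. Basal keratinocyte markers had a median log2 ratio of 1.17 as deposited and 0.28 relative to the median gene, hair matrix and shaft markers 0.77 and -0.07, and dermal fibroblast markers 0.28 and -0.69. The pigment genes, at 0.39 and -0.39, lay between the fibroblast and the hair matrix lists on either scale. These lists have 6 genes each, and no test sets them apart. Erythroid markers were lower by 2-fold or more as deposited in 6 of 6 genes, beside 3.55% of all genes, with a median of -4.57. Of these, Slc4a1 passed the filter only through its ZIP10-negative value. Besides the globins, Alas2, the first enzyme of heme synthesis in red cells, stood at 56.2 RPKM in ZIP10-positive cells, against 1718 RPKM in ZIP10-negative cells, and Slc4a1, their anion exchanger, at 0.909 and 68.8 RPKM.

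**Figure D4:**
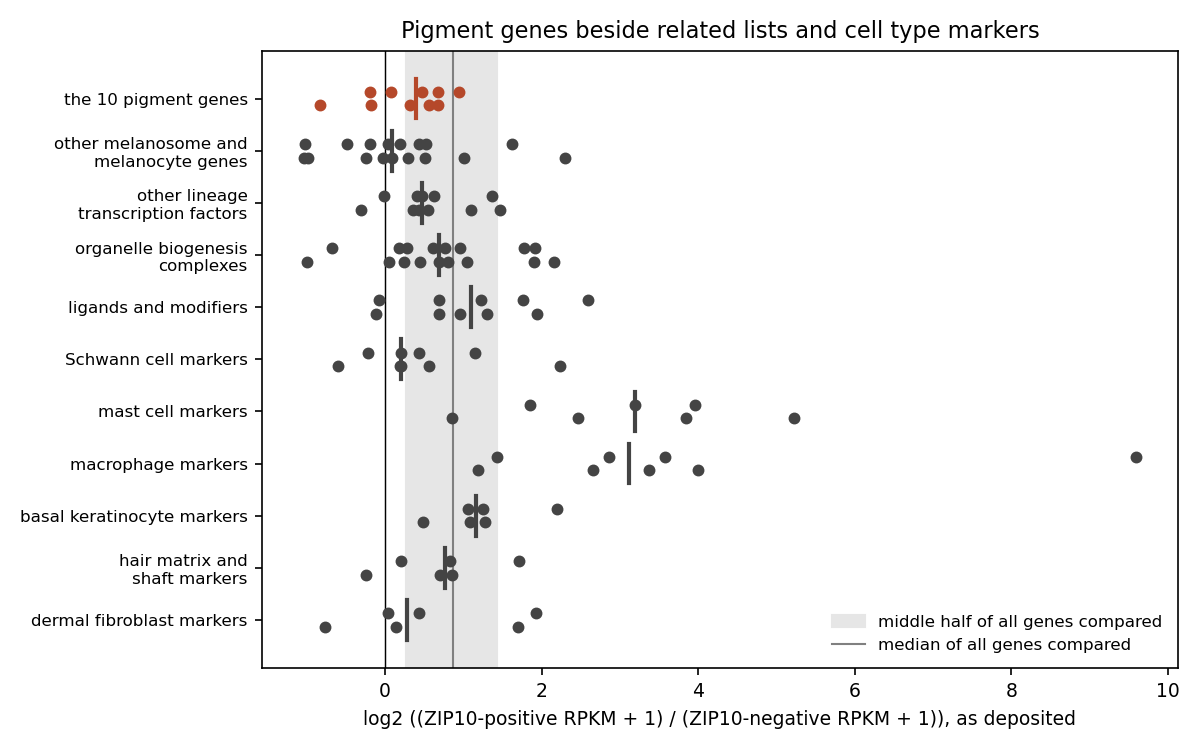
Log2 ratio of ZIP10-positive to ZIP10-negative values, with 1 RPKM added to each, for the 10 pigment genes, related lists and cell type markers; each point is a gene that passed the filter and each vertical bar a list median. The pigment genes have a median of 0.39, and the grey band spans the middle 50% of all genes compared. Several mast cell and macrophage markers passed the filter only through their ZIP10-positive value, so the pigment genes are not compared with these medians.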

How the data were processed

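The authors deposited RPKM values, 1 per gene symbol and library, and the unit is taken from the table's own name. Per the submitters' processing notes, cutadapt, TopHat and Cufflinks were used with mm9. The sources used here give no versions or settings, and neither the annotation nor the use of strand. Per the labels' protocols, libraries came from 10 ng of RNA and were read with single reads of 50 bases.

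Log2 ratios used a pseudocount of 1 RPKM, for genes that reached 1 RPKM in either library, as deposited and after dividing the median log2 ratio of genes at 1 RPKM or more in both libraries evenly between them. Depth was estimated from whole-number ratios between the libraries (64.6% of 1389 low genes had one, within 0.0012%) and from 454 genes with 1 transcript. It came to 2.77e+06 reads for the ZIP10-positive library and 2.71e+06 for the ZIP10-negative one. Only 22.5% of those 454 genes lay within 1.4% of the most frequent value, so read numbers are estimates. Reads per gene used the longest coding transcript of GENCODE vM21 (GRCm38, another build) less 199 bases. Whole-number ratios gave 146 and 164 reads for Tyrp1 and 27 and 17 for Slc45a2, equal to these estimates. For Oca2 the fewest whole reads were 44 and 51, above its estimate of 22 and 26. Mlana had 114 and 69 whole reads against an estimate of 104 and 63, and Sox10 36 and 15 against 37 and 15. No such ratio of small whole numbers was found for Dct, Tyr, Pmel, Mitf and Kit, so their read numbers have no such check. Intervals are exact Poisson (levels), Clopper-Pearson (ratios) or conditional exact (ratios within a library), and cover counting error only.

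Of the list genes, 5 were found by a synonym in the RefSeq gene table. The members and lists were chosen with earlier results of these data known. Named are all members, the 17 genes of the other melanosome list, each at 1 RPKM or more in a library, up to 5 of the most abundant genes of each further list at 5 RPKM or more, and the 5 nearest the members' median. Pax3, Creb1, Zeb2, Kitl, Sox2, Slc4a1, Bloc1s4, Bloc1s5, Bloc1s6, Ap3b1, Ap3d1 and genes listed at 0 were named outside this rule, after their values were seen. The software was Python 3.11.15, pandas 2.3.3, numpy 2.4.6, scipy 1.17.1 and matplotlib 3.10.9, and the scripts were tested on simulated data.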

Additional observations from a re-analysis of the deposited data

How the results depend on the processing

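No paired analysis was possible because each group is 1 library. The count of members at least 2-fold apart, 0 as deposited, became 1 (Sox10, higher) with a pseudocount of 0.1, 2 with upper quartile scaling, 3 when the 50 most abundant genes were left out of the scaling and 3 without globin genes and Rn45s, all lower in these last settings. Relative to the median gene it was 2, with 3 at a pseudocount of 0.1 and 1 at a pseudocount of 5. The median log2 ratio of members as deposited, 0.39, became 0.50 with a pseudocount of 0.1, 0.19 with a pseudocount of 5, 0.62 with a filter of 5 RPKM (which kept 6 members), -0.66 outside the 50 most abundant, -0.71 without globin genes and Rn45s and -0.46 with upper quartile scaling. Relative to the median gene it was -0.39, with -0.46 at a pseudocount of 0.1 and -0.27 at a pseudocount of 5. The summed ratio of 1.40 became 0.710 relative to the median gene, 0.558 outside the 50 most abundant genes, and 0.533 on sums that lack globin genes and Rn45s. The moves under other scalings follow from a common shift of all genes, by 0.98, 1.33, 1.39 and 1.06 (log2) in the order median gene, outside the 50 most abundant, sums lacking globin and Rn45s, and upper quartile. Under the other scalings, 24 of 30 values of single members moved past their counting interval, and under the other pseudocounts 0 of 20 did. With the median annotated transcript in place of the longest, all 10 members kept their side of equality as deposited, and 3 intervals (Dct, Tyrp1 and Tyr) in place of 5 lay below the median gene. The scaling without globin genes and Rn45s was chosen with earlier results of these data known, and the shorter transcript was chosen after seeing the data.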
